A study of Mus musculus with 29 samples.

Results

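The genes described here are 9 markers of the epicardium and mesothelium, the thin epithelial sheet that covers the heart and lines the chest and abdominal cavities. They were taken by symbol from a table of FPKM (a fragment count scaled to transcript length and library size) for 29955 mouse genes: Msln, Upk3b, Upk1b, Lrrn4, Krt8, Krt18, Krt19, Wt1 and Aldh1a2. All 9 symbols were found, 1 row each.

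Heart failure (HF) was produced in male C57BL6 mice of 3 months by giving NaCl (1%) and L-NAME (0.3 mg/ml), which blocks nitric oxide synthase, in the water for 5 weeks. Angiotensin II at 0.7 mg/kg/day was added through an osmotic pump from week 1, and all of these agents were then withdrawn so that recovery could be followed. The 24 libraries used comprised 2 from HF week 3, 3 from HF week 5, 2 from Recovery week 7, 2 from week 9, 3 from week 11, 2 from week 13, 5 from week 19, and 5 from age-matched controls of week 19 (weeks counted from the start of the drinking water). The labels name the material as whole heart or whole ventricle, and the study's methods describe frozen apical portions and poly(A)-selected RNA. Control week 19 was 14 weeks later in the study than HF week 5, so that HF and age cannot be told apart in that comparison.

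The epicardium and the mesothelium of the pericardium are squamous epithelia of mesodermal origin. Unlike most cells derived from mesoderm they carry simple-epithelial keratins, and they display mesothelin and uroplakins on their surface. In the embryo the epicardium expresses Wt1 and the retinoic acid enzyme Aldh1a2 and gives rise to fibroblasts and mural cells of the heart, and in the injured adult heart the epicardial layer is known to become active again.

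RefSeq promoter windows (GRCm38.p6) were at hand for 5 of the 9 genes, Upk3b, Lrrn4, Krt8, Krt18 and Aldh1a2. The 4 printed here belong to genes that were near 0 in control hearts and above every non-HF library in all 5 HF libraries. Each is the 250 bases before the annotated start, 5′ to 3′ on the strand of the gene, with matches to the searched motifs in capitals.
Upk3b, chr5:136038246-136038495, plus strand: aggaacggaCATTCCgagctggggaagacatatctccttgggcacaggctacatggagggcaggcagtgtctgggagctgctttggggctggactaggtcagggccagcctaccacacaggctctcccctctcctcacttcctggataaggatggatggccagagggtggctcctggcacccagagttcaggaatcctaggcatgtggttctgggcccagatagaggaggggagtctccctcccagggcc
Lrrn4, chr2:132880863-132881112, minus strand: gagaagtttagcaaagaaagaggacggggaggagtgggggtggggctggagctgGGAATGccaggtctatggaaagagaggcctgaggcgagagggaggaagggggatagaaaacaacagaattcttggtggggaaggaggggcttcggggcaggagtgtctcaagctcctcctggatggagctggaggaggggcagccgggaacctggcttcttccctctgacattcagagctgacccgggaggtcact
Krt8, chr15:102004343-102004592, minus strand: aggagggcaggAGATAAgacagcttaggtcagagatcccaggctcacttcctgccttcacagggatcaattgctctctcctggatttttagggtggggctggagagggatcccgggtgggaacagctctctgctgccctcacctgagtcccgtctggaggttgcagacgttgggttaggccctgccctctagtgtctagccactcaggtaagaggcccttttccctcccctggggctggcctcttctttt
Krt18, chr15:102027966-102028215, plus strand: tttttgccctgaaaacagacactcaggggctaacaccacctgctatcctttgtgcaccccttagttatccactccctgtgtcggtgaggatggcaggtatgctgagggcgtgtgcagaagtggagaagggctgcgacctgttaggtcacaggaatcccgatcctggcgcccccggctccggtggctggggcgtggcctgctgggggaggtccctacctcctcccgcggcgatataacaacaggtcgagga

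A set of 5 short motifs was searched on both strands: TATAAA (the TATA box), CCAAT (the CCAAT box), GGGCGG (the GC box), CATTCC (the core bound by TEAD factors) and AGATAA (a core bound by GATA factors). CATTCC was found in the windows of Upk3b, 241 bases before the start, and of Lrrn4, on the opposite strand 196 bases before the start. It was present in 12.6% of all 32851 windows of this length. AGATAA was found in the window of Krt8 only, 239 bases before the start, and in 9.99% of all windows. The Krt18 window held none of the 5 motifs. Aldh1a2 held CCAAT 36 bases before its start, against 33.8% of all windows, and its window of 77.6% G and C stood above the 58.0% to 60.8% of the other 4 and the median of 52.4%. Krt8 and Krt18, whose proteins pair in 1 filament, are neighbours on chromosome 15 and are read in opposite directions away from each other, with 2 further gene models and no other protein-coding gene between them. These matches describe the letters of the windows only.

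The makeup of the HF libraries was examined first, since the tissue sampled could differ between them. The atrial genes Myl7, Sln and Myl4 summed to 7737 and 14050 FPKM in HF week 3 libraries 1 and 2, to 39727, 414.7 and 15.5 FPKM in HF week 5 libraries 1, 2 and 3, and to between 3.04 and 13.4 FPKM in the 19 other libraries. The 6 adipocyte genes examined (Adipoq, Plin1, Cidec, Lep, Cfd and Ucp1) summed to 227.1 and 100.9 FPKM in HF week 3 and to 252.6, 224.6 and 1.80 FPKM in HF week 5, against 0.146 to 1.31 FPKM elsewhere. Atrial and fat transcripts were therefore far above the rest in 4 of the 5 HF libraries, and HF week 5 library 3 was just above the highest of the other libraries on both sums. Of the 7 genes of the full atrial list 6 were tested, and 5 were higher and 1 lower than in Control week 19 at HF week 5, against 11.6% of all genes higher and 12.4% lower. At HF week 3, Myl7, Sln, Myl4 and Dkk3 were higher. Nppa, the atrial natriuretic peptide, was listed at 0 in both HF week 3 libraries and was at 42004, 2100 and 2214 FPKM in HF week 5, against 81.1 to 344.5 FPKM in Control week 19 and at most 2426 FPKM outside HF. The ventricular gene Myl2 was likewise listed at 0 in all 5 control libraries, so that a 0 of such a gene can be a missing estimate, and no direction is read from Nppa at HF week 3. Kcnj3, a subunit of the atrial potassium channel, was lower at both times (-1.43 at HF week 5; limma, adjusted p = 0.0147). Markers of airway, alveolar and other epithelium were at or near 0 throughout, with Epcam at most 0.026 and Cdh1 at most 0.149 FPKM in the HF libraries. The exception was the airway gene Scgb1a1, at 48.1 FPKM in HF week 5 library 1 and 3.67 FPKM in HF week 3 library 2. Libraries of recovery weeks 7 to 13 had 27.9% to 37.4% of summed FPKM in their 10 highest genes, against 14.6% to 18.8% at weeks 5 and 19. HF week 3 libraries 1 and 2 had 19.8% and 37.5%. This property cannot be told apart from the group where HF week 3 or recovery weeks 7 to 13 are set against weeks 5 and 19. Relative depth, read from the steps between low values, ran from 0.723 to 1.39 in 23 libraries and could not be read for HF week 3 library 1, which had 12816 genes above 0 against 16339 to 18091 in the others. Absolute depth was unknown.

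**Figure D1:**
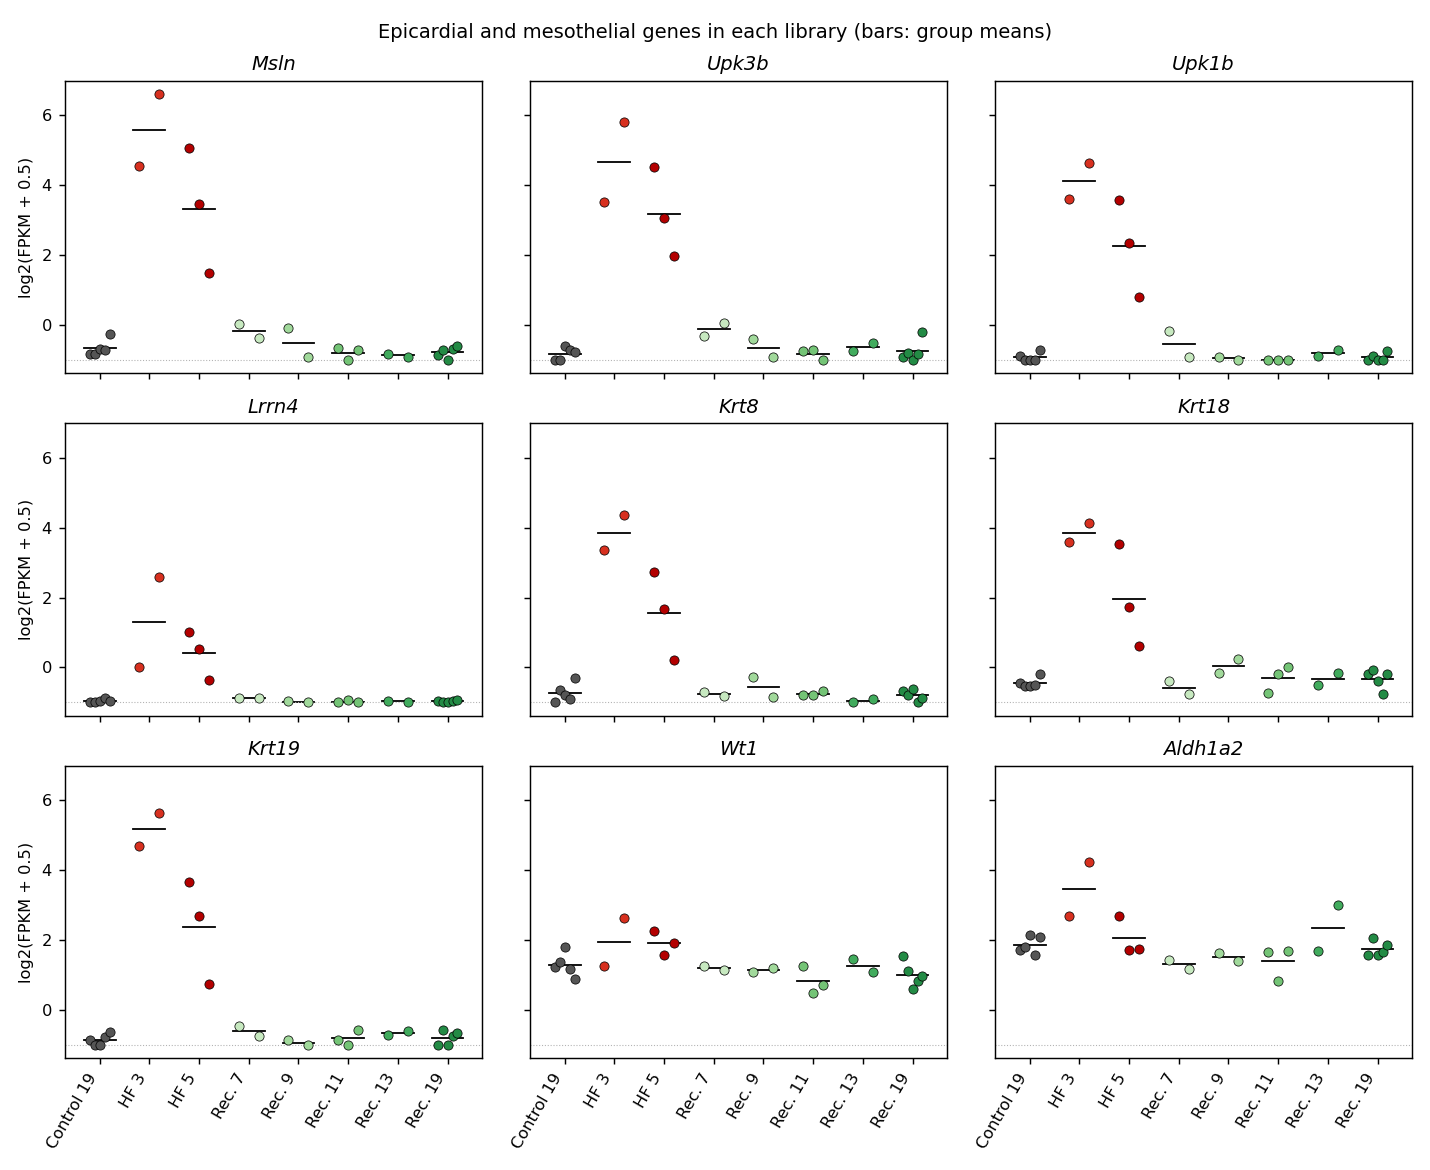
Level of each of the 9 genes on the log2(FPKM + 0.5) scale (y axis) in each of 24 libraries, grouped by condition and week (x axis); points are libraries, bars are group means, and the dotted line marks 0 FPKM. In 7 panels the HF points lie above every other point, whereas Wt1 and Aldh1a2 were present in all groups and overlap. By single HF library, 11.9% to 23.0% of 22107 genes lay above the 19 others. The share above them in all 5 was not determined.

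Mesothelin, the product of Msln, is a surface glycoprotein of mesothelial cells. Msln was listed at 0.060, 0.062, 0.122, 0.105 and 0.328 FPKM in the 5 control libraries. It stood at 23.0 and 96.6 FPKM in HF week 3 and at 32.7, 10.5 and 2.28 FPKM in HF week 5. The lowest HF library was thus above the highest of the 19 others, Recovery week 7 library 1 at 0.522 FPKM, and the HF week 5 libraries spread widely among themselves. At Recovery week 19 the values were 0.053, 0.106, 0, 0.120 and 0.164 FPKM, within or below the control range. Msln was higher at HF week 5 than in Control week 19 by 4.00 ± 0.513 (SE) on the log2(FPKM + 0.5) scale (limma, n = 3 and 5, adjusted p = 6.51e-05), a scale that understates changes of genes near 0.

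Upk3b and Upk1b encode uroplakins, membrane proteins first known from bladder urothelium and also made by mesothelium. Upk3b was at 10.9 and 55.6 FPKM in HF week 3 and at 22.5, 7.80 and 3.39 FPKM in HF week 5, whereas the 19 other libraries ran from 0 to 0.539 FPKM with a median of 0.099. Upk1b was at 11.6 and 24.1 FPKM in HF week 3 and at 11.5, 4.62 and 1.24 FPKM in HF week 5, against 0 to 0.389 FPKM with a median of 0 elsewhere. Neither gene overlapped between HF and non-HF libraries. Both rose at HF week 5 against Control week 19, Upk3b by 4.00 ± 0.440 (limma, adjusted p = 2.13e-05) and Upk1b by 3.17 ± 0.379 (limma, adjusted p = 4.25e-05). The uroplakins that complete the bladder complex gave other values: Upk1a was at 0 to 0.830 FPKM in the HF libraries and 0.056 to 1.08 FPKM elsewhere, and Upk3a was listed at 0 in all 5 HF libraries.

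Lrrn4 encodes a leucine-rich repeat membrane protein and is a marker of the mesothelium. It had a mean of 0.376 FPKM over the 24 libraries and did not pass the 0.5 FPKM filter. Its values were 0.510 and 5.48 FPKM in HF week 3 and 1.53, 0.934 and 0.285 FPKM in HF week 5, against 0 to 0.047 FPKM in the other libraries. The groups did not overlap. Its mean log2 value was 1.35 higher at HF week 5 than in Control week 19 (exact two-sided permutation test, p = 0.0179, the smallest that 3 against 5 libraries allow). Across all 22107 genes without a filter the limma test gave an adjusted p of 0.0177.

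Krt8, Krt18 and Krt19 encode the keratins of simple epithelia, Krt8 of the basic type and Krt18 and Krt19 of the acidic type with which it pairs. Krt19 was at 25.4 and 49.1 FPKM in HF week 3 and at 12.2, 5.89 and 1.18 FPKM in HF week 5, against 0 to 0.225 FPKM in the 19 other libraries. Krt8 was at 9.69 and 20.2, then 6.20, 2.70 and 0.654 FPKM, against 0 to 0.324 FPKM. Krt18 was at 11.5 and 17.0, then 11.03, 2.82 and 1.02 FPKM, against 0.088 to 0.684 FPKM. In all 3 genes each HF library exceeded all 19 others, with HF week 5 library 3 the lowest. The ratio of Krt18 plus Krt19 to Krt8, both in FPKM and so per length, stayed between 3.23 and 3.82 in the 5 HF libraries while Krt8 itself ranged from 0.654 to 20.2 FPKM. The increases at HF week 5 against Control week 19 were 3.22 ± 0.393 for Krt19 (limma, adjusted p = 4.45e-05), 2.39 ± 0.395 for Krt18 (limma, adjusted p = 4.12e-04) and 2.27 ± 0.361 for Krt8 (limma, adjusted p = 3.09e-04).

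Wt1, the Wilms tumour transcription factor of the epicardium, behaved otherwise. Its control values were 1.85, 2.07, 3.00, 1.73 and 1.33 FPKM, so that it was detected in every library. It was at 1.88 and 5.71 FPKM in HF week 3, 4.24, 2.48 and 3.27 FPKM in HF week 5, and 2.38, 1.65, 1.03, 1.27 and 1.45 FPKM at Recovery week 19. HF and control libraries overlapped, 3 of the 5 HF libraries being above all 19 others. The difference of HF week 5 from Control week 19 was 0.63 ± 0.275 (95% interval 0.05 to 1.20) and did not pass the threshold (limma, adjusted p = 0.105), although it did when the HF week 3 libraries were left out of the fit (limma, adjusted p = 0.0373).

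Aldh1a2 encodes the retinaldehyde dehydrogenase that makes retinoic acid in the epicardium. It was at 2.75, 2.99, 3.91, 2.45 and 3.75 FPKM in control libraries, 5.90 and 18.2 FPKM in HF week 3, and 5.98, 2.77 and 2.83 FPKM in HF week 5. The Recovery week 19 values were 2.47, 3.69, 2.49, 2.65 and 3.15 FPKM. Outside HF the highest value was 7.43 FPKM in Recovery week 13 library 2, and only HF week 3 library 2 was above it. HF week 5 differed from Control week 19 by 0.19 ± 0.324 (95% interval -0.49 to 0.87; limma, adjusted p = 0.705), with overlapping groups.

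Of the 8 genes that passed the filter, 6 were higher at HF week 5 than in Control week 19 at an adjusted p under 0.05 (Msln, Upk3b, Upk1b, Krt8, Krt18 and Krt19), none was lower, and 11.6% of all 12759 genes tested were higher by this rule. The filter bears on this count. Only Wt1 and Aldh1a2 would have reached a mean of 0.5 FPKM outside the HF libraries, and neither of these was called, so the 6 passed through the libraries in which they were high. Without any filter all 9 genes could be tested, and 7 were higher, Lrrn4 being the addition, against 7.07% of 22107 genes. The 3 HF week 5 libraries lay above all 5 control libraries for 7 of the 9, against 10.8% of genes. In bulk tissue, more cells of a type and more RNA per cell cannot be told apart.

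The atrial and adipocyte transcripts given above were high in 2 of the 3 HF week 5 libraries and in both HF week 3 libraries. In these 4 libraries the 6 called genes summed to 92.2 and 262.8 FPKM (HF week 3 libraries 1 and 2) and to 96.1 and 34.3 FPKM (HF week 5 libraries 1 and 2). By the atrial sum HF week 5 library 1 was highest and HF week 5 library 2 lowest. By the adipocyte sum HF week 5 library 1 was highest and HF week 3 library 2 lowest. With those 4 libraries left out, HF week 5 was represented by library 3 alone, assumed to vary like the other groups. In that fit without a filter, a setting chosen after the data were seen, 7 of the 9 genes were higher than in Control week 19, against 3.83% of all genes. The differences were then smaller, 2.78 for Upk3b (limma, adjusted p = 5.08e-06), 2.14 for Msln (limma, adjusted p = 1.02e-04), 1.72 for Upk1b, 1.60 for Krt19, 1.04 for Krt18, 0.94 for Krt8 and 0.61 for Lrrn4. With the HF week 3 libraries and the filter kept and HF week 5 libraries 1 and 2 left out, 4 of 8 were called, against 1.07% of all genes, and Krt18 (limma, adjusted p = 0.0713) and Krt8 (limma, adjusted p = 0.119) were not. In HF week 5 library 3, Myl7 (6.16 FPKM), Cfd (1.28) and Ucp1 (0.292) were above their highest values outside HF (3.56, 0.754 and 0.042), and Sln, Myl4, Adipoq and Nppa were not. That library had 8 of the 9 genes above all 19 non-HF libraries, where 11.9% of the 22107 genes with a value above 0 were above them. The corresponding counts were 7 of 9 for HF week 3 library 1, 9 for HF week 3 library 2, 8 for HF week 5 library 1 and 7 for HF week 5 library 2, with 22.4%, 20.3%, 23.0% and 12.3% of these genes.

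Markers of other cell types moved with these genes in part. At HF week 5, 3 of 4 smooth muscle genes (Acta2, Tagln and Cnn1, not Myh11), 4 of 5 fibroblast genes (Pdgfra, Col1a2, Dcn and Lum, not Col1a1) and 2 of 5 endothelial genes (Pecam1 and Emcn) were higher than in Control week 19, against 11.6% of all genes. The smooth muscle genes summed to 158.8, 226.7 and 134.7 FPKM in HF week 5 libraries 1, 2 and 3, against 69.8 to 99.2 FPKM in control libraries and at most 138.4 FPKM outside HF. The endothelial sums were 251.9, 198.5 and 263.8 FPKM, against 171.3 to 193.0 FPKM in controls and at most 194.3 FPKM outside HF. The fibroblast sums were 603.8, 305.4 and 533.1 FPKM, against 211.1 to 310.2 FPKM in controls, so that library 2 lay within the control range, and a recovery library (week 11, library 3) reached 605.7 FPKM. In recovery weeks 7 to 13, 4 of the 4 smooth muscle genes, 2 of the 5 endothelial genes and none of the 5 fibroblast genes were lower than at HF week 5 in limma, against 10.9% (for the fibroblast genes 1, Lum, had an unadjusted p under 0.05). All 4 smooth muscle genes, 1 fibroblast gene and 1 endothelial gene were lower at Recovery week 19 than at HF week 5, against 12.0%. Sums of macrophage genes (113.9 to 194.1 FPKM in HF week 5 against 84.9 to 161.0 FPKM in controls) overlapped. The part of these cell types in the result was not tested.

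**Figure D2:**
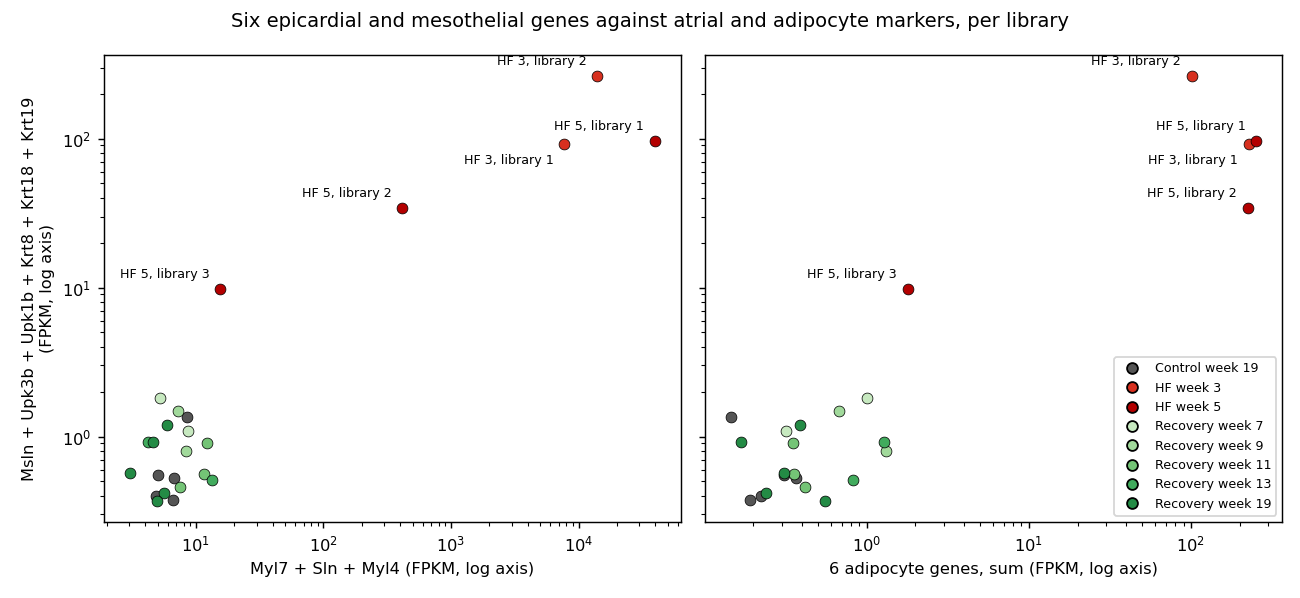
Summed FPKM of Msln, Upk3b, Upk1b, Krt8, Krt18 and Krt19 (y axis, log) against the sum of 3 atrial genes (left, log axis) and of 6 adipocyte genes (right, log axis); each point is 1 of 24 libraries, coloured by group. HF week 5 library 3, at 9.75 FPKM of the summed genes, lies above the 19 non-HF libraries (at most 1.81) with marker sums of 15.5 and 1.80 FPKM, while the other 4 HF libraries lie at the upper right.

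At HF week 3 the changes against Control week 19 were larger. Of the 8 tested genes 7 were higher, against 23.1% of all genes, and 8 of 9 without a filter, against 16.1%. The differences were 6.25 ± 0.588 for Msln, 6.02 ± 0.450 for Krt19, 5.48 ± 0.504 for Upk3b, 5.04 ± 0.434 for Upk1b, 4.59 ± 0.414 for Krt8 and 4.30 ± 0.453 for Krt18, with adjusted p of at most 7.4e-07 in limma. Aldh1a2 was also higher, by 1.59 ± 0.371 (limma, adjusted p = 0.00164), a difference that fell to 0.82 without HF week 3 library 2. Wt1 differed by 0.66 ± 0.315 (limma, adjusted p = 0.0882). Its value went to -0.04 without the same library and to 1.35 without HF week 3 library 1. These settings leave 1 library at HF week 3, so no test is given for them. Both HF week 3 libraries carried the atrial and adipocyte transcripts. Of other cell types, 4 of 5 fibroblast, 3 of 5 endothelial and 2 of 4 smooth muscle genes were also higher, against 23.1% of all genes. Lower were 1 endothelial gene, 1 of 5 macrophage genes and 3 of 8 ventricular genes, against 27.6%. The 2 ventricular genes that were higher, Myh6 and Myl2, were listed at 0 in Control week 19. The part of all these transcripts in the result was not tested.

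Between the HF weeks, 6 of the 8 tested genes were lower at week 5 than at week 3, against 8.28% of all genes, and 6 of 9 without the filter, against 4.45%. Apart from Aldh1a2, the 6 had passed the filter only through the HF libraries. Krt19 fell by 2.80 on the log2 scale (SE 0.491; limma, adjusted p = 0.00188), Krt8 by 2.32, Msln by 2.25, Krt18 by 1.91, Upk1b by 1.86 and Aldh1a2 by 1.40. Upk3b differed by -1.48 ± 0.550 (limma, adjusted p = 0.0583) and Wt1 by -0.03 ± 0.344. Groups of 2 and 3 libraries stood behind this contrast, and the libraries of Msln, Upk3b, Lrrn4, Wt1 and Aldh1a2 overlapped. With the spread taken from these 5 libraries alone none of 9 tested was called. The count was 3 without HF week 5 library 2 or HF week 5 library 3. The share of all genes called in these fits was not determined, so the counts are not read as a property of these genes. Leaving out single libraries moved Msln between -3.28 (without HF week 3 library 1) and -1.23 (without HF week 3 library 2). Without the same libraries Upk3b ran from -2.63 to -0.33 and Aldh1a2 from -2.18 to -0.63. Krt18 ran from -2.70 (without HF week 5 library 1) to -1.23, Upk1b from -2.53 to -1.14, Krt8 from -2.92 to -1.65 and Krt19 from -3.45 to -1.99, the higher ends without HF week 5 library 3. Of other cell types, 2 of 5 fibroblast genes (Col1a1 and Col1a2) and 1 of 4 smooth muscle genes (Cnn1) were also lower, against 8.28%. Of 8 ventricular genes 2 were higher (Tnnt2 and Ryr2), against 13.1%, and 1 was lower (Myh6, listed at 0 in HF week 5). None of the 5 endothelial or 5 macrophage genes was called. The part of these cell types in the result was not tested.

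After withdrawal 8 of the genes fell and were not called different from control in the mean of weeks 7 to 13 or at week 19, while single weeks were not tested. In recovery weeks 7 to 13 (9 libraries, the 4 weeks weighted equally), 7 of the 8 tested genes were lower than at HF week 5, against 10.9% of all genes, and without a filter 8 of 9, Lrrn4 included, against 6.95%. The differences ran from -3.91 for Msln to -0.42 for Aldh1a2, the gene that was not called. At Recovery week 19, 7 of 8 were again lower than at HF week 5, against 12.0%, and 8 of 9 without the filter, against 7.31%. Msln fell by 4.10 (SE 0.513), Upk3b by 3.93, Upk1b by 3.17, Krt19 by 3.16, Krt8 by 2.33 and Krt18 by 2.27 (limma, adjusted p at most 5.99e-04). Lrrn4 fell by 1.37 (exact two-sided permutation test, p = 0.0179, the smallest possible). Wt1 fell by 0.90 (SE 0.275; limma, adjusted p = 0.0222), a call that was lost without HF week 5 library 1, HF week 5 library 3 or Recovery week 19 library 3. Aldh1a2 differed by -0.30 ± 0.324 (limma, adjusted p = 0.532). With HF week 5 represented by library 3 alone, in the fit without a filter, 6 of the 9 genes were lower in recovery weeks 7 to 13, against 3.36% of all genes, and 6 at Recovery week 19, against 3.86%. Krt18 and Wt1 were then not called at either time (limma, adjusted p = 0.0585 and 0.187 in weeks 7 to 13, and 0.0537 and 0.134 at week 19), and Msln differed by -2.06 and -2.24. These contrasts share their HF week 5 libraries with the comparison of HF against control.

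Recovered hearts were then set against control hearts. At Recovery week 19 none of the 8 tested genes was called in limma, none reached an unadjusted p under 0.05, and 0.0235% of all genes were higher and 0% lower. The differences ran from -0.28 for Wt1 (95% interval -0.78 to 0.22) to 0.12 for Krt18 (95% interval -0.60 to 0.83). For Msln the interval was -1.03 to 0.83, so that changes of up to about that size on the log2(FPKM + 0.5) scale were not resolved with 5 libraries in each group. Lrrn4 differed by -0.01 (exact two-sided permutation test, p = 0.651). In recovery weeks 7 to 13 against Control week 19 none was called, with 0.0549% of genes higher and 0.0157% lower, and the differences ran from -0.23 for Aldh1a2 to 0.25 for Upk3b. Between Recovery week 19 and weeks 7 to 13 none was called either, with 0.00784% of genes higher and 0.0314% lower, and no unadjusted p was under 0.05 in either of these comparisons. The highest values outside HF of Msln, Upk3b, Upk1b, Lrrn4 and Krt19 were each in a library of Recovery week 7. They were near 0, from 0.047 FPKM for Lrrn4 to 0.539 FPKM for Upk3b. Library 2 of that week had Upk1b at 0.033 and Krt19 at 0.091 FPKM, within the range of the other non-HF libraries. The share of all genes with their highest value in that week was not determined. For Upk3b, both libraries of that week (0.308 and 0.539 FPKM) lay above all of the week 9 to 13 libraries, and Recovery week 19 library 5 (0.371 FPKM) lay between them. Over all 8 groups, an F test in limma called 7 of 8 genes, against 38.6% of all genes, with Wt1 at an adjusted p of 0.0517. Without the filter it called 8 of 9, against 21.2%. As above, genes that passed the filter through the HF libraries were bound to differ among groups, and the filtered count is no support by itself.

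**Figure D3:**
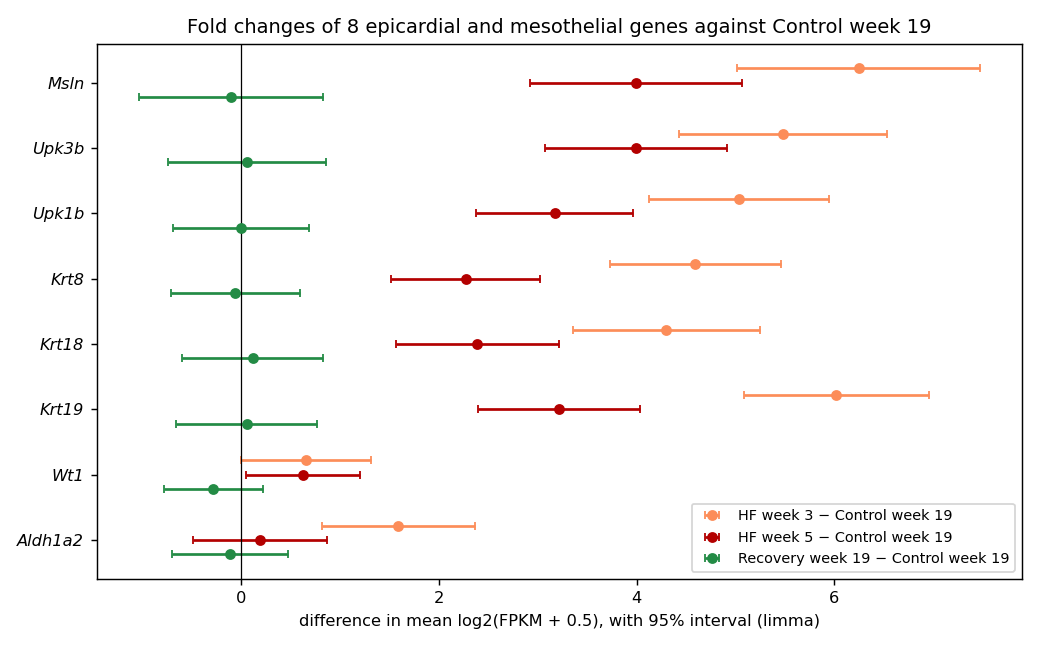
Difference in mean log2(FPKM + 0.5) from Control week 19 (x axis) for the 8 genes that passed the filter (y axis), at HF week 3, HF week 5 and Recovery week 19; points are limma estimates and bars 95% intervals. The 6 keratin, uroplakin and mesothelin genes lie at 2.27 or more in both HF weeks, Wt1 and Aldh1a2 lie nearer 0, and all 8 intervals at Recovery week 19 span 0.

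Across the 24 libraries the levels of Msln, Upk3b, Upk1b, Krt8, Krt18 and Krt19 ran closely together, with Pearson r of 0.949 to 0.994 between any pair on the log2 scale. Wt1 and Aldh1a2 correlated with the other genes at 0.639 to 0.740 and 0.639 to 0.729. The libraries share their group and its tissue makeup, and these coefficients are given as a description. Msln and Upk1b were the closest pair (r = 0.994), and on deviations from group means the closest were Upk1b and Krt19 (r = 0.962). The order of levels within a library changed with the library. Msln was 12.3 and 16.9 times Wt1 in HF week 3, 7.71, 4.22 and 0.695 times Wt1 in HF week 5 libraries 1, 2 and 3, all in FPKM and so per length.

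The 10 other genes whose levels over the 24 libraries were most like the mean standardised profile of the 8 tested genes were Cyp2s1 (Pearson r = 0.986), Cst9 (0.981), Muc16 (0.976), Chst4 (0.968), Nkain4 (0.965), Tmem151a (0.963), Lgals7 (0.961), Krt14 (0.959), Tm4sf5 (0.959) and Wfdc2 (0.958). By rank they followed that profile less closely, with Spearman rho from 0.410 (Tm4sf5) to 0.778 (Nkain4). As above, libraries share their group, and these coefficients are a description. Muc16, the membrane mucin that binds mesothelin, was at 1.95 and 19.6 FPKM in HF week 3 and 5.86, 1.75 and 0.773 FPKM in HF week 5, and at most 0.223 FPKM in any other library. Cyp2s1, a cytochrome P450 of epithelia, was at 3.56 and 11.1, then 4.46, 1.68 and 0.472 FPKM, and at most 0.211 FPKM elsewhere. Lgals7, a galectin of stratified epithelium, was at 32.3 and 46.5, then 13.6, 6.62 and 0.288 FPKM, so that in HF week 5 library 3 it was below its highest value of 0.300 FPKM outside HF. Krt14, a keratin of basal epithelial cells, was at 8.93 and 16.2, then 4.62, 1.04 and 0 FPKM, while its usual partner Krt5 was listed at 0 in all 5 HF libraries.

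A list of 14 further genes of epicardium and mesothelium was followed. Of the 12 that passed the filter, 8 were higher at HF week 5 than in Control week 19, against 11.6% of all genes, none was lower, and their median difference was 1.61 against 0.04 for all genes. Without the filter 8 of the 14 were higher, against 7.07%. Muc16, Krt7, Anxa8 and Dpp4, all among the 8, were at most 0.223, 0.339, 0.755 and 0.719 FPKM outside HF and passed the filter only through the HF libraries, so the share among those that passed is no support by itself. Nkain4 (3.32 ± 0.524; limma, adjusted p = 2.98e-04), Krt7 (2.94 ± 0.553), Muc16 (2.36 ± 0.467) and Anxa8 (2.18 ± 0.422) changed most. Prg4, which encodes the lubricant lubricin, was at 11.5 and 21.9 FPKM in HF week 3 and 22.4, 9.08 and 11.1 FPKM in HF week 5, against 2.93 to 7.94 FPKM in the 19 other libraries, so that library 3 of HF week 5 was not the lowest for this gene. Tcf21 and Tbx18, transcription factors of embryonic epicardium, were at 8.12 to 16.2 and 0.358 to 2.43 FPKM in the HF libraries and did not pass the test (0.05 ± 0.186 and 0.25 ± 0.240). Tcf21 is also expressed by cardiac fibroblasts (fibroblast sums are given above). At Recovery week 19, 7 of the 12 were lower than at HF week 5, against 12.0% of all genes, and 8 of 14 without the filter, against 7.31%. None was called against control. Slpi, a secreted protease inhibitor, reached its highest level at 21.9 FPKM in Recovery week 19 library 5, above its 5.69 FPKM in HF week 3 library 1.

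**Figure D4:**
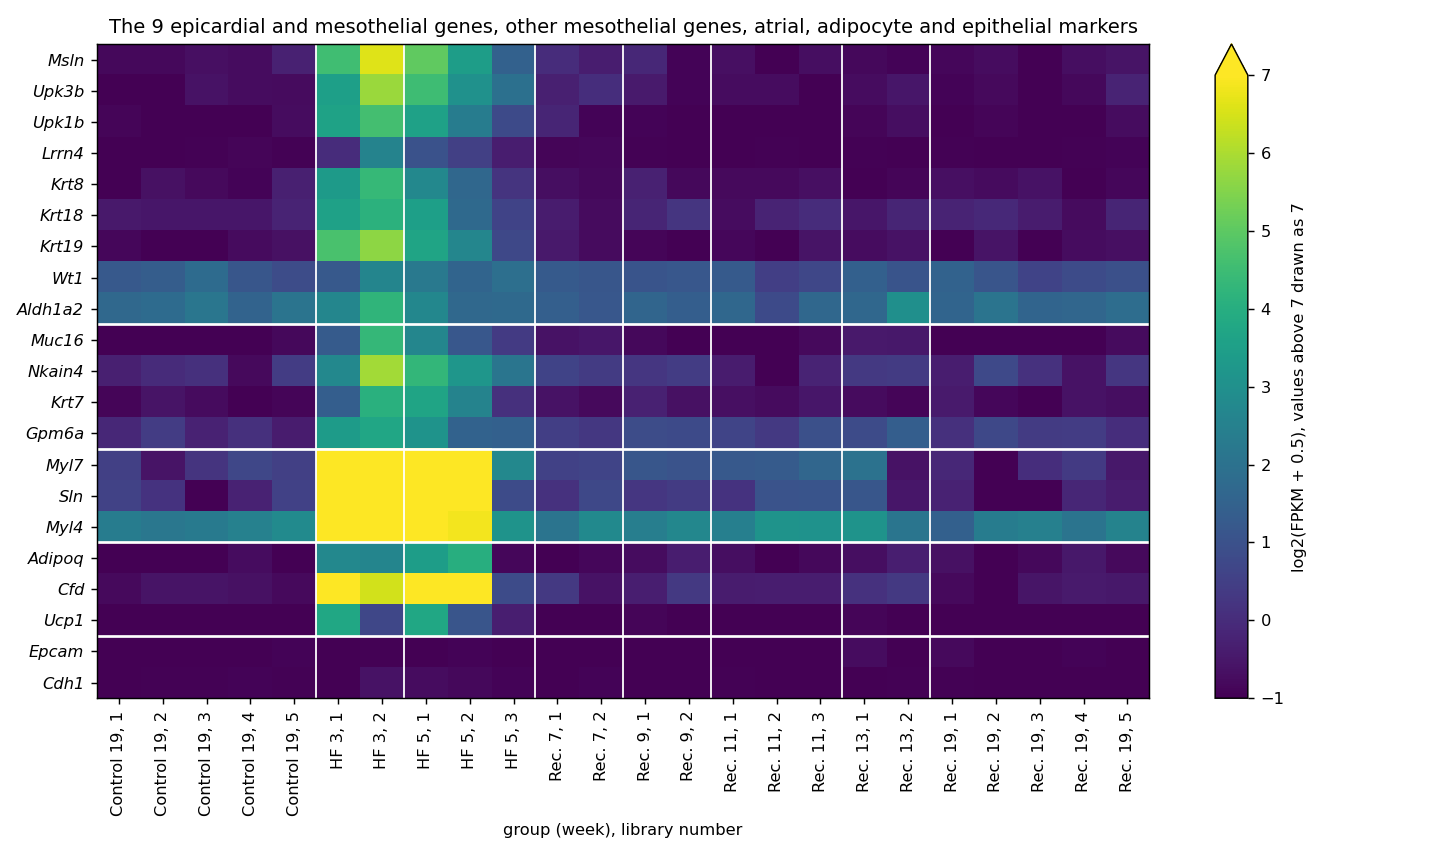
Levels on the log2(FPKM + 0.5) scale (colour, values above 7 drawn as 7) of the 9 genes, 4 further mesothelial genes, 3 atrial, 3 adipocyte and 2 epithelial marker genes (rows) in 24 libraries (columns, by group and library number). HF libraries stand apart in the upper blocks, HF week 5 library 3 is far below the other 4 in the 3 atrial genes drawn (Myl7, Sln and Myl4) and in Adipoq and Cfd, and Epcam and Cdh1 are near 0 throughout.

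The retinoic acid pathway around Aldh1a2 was examined with 18 genes of synthesis, breakdown, binding and reception, of which 13 passed the filter. At HF week 5, 3 were higher than in Control week 19 and 1 was lower, against 11.6% and 12.4% of all genes, and the median difference was -0.04 against 0.04 for all genes. Without the filter 4 of 17 were higher and 1 was lower, against 7.07% and 6.51%. Of the higher genes, Aldh1a3 and Rbp4 passed the filter only through the HF libraries. Rbp4, the retinol carrier of plasma, which is made by liver and fat, was at 1.70 and 3.31 FPKM in HF week 3 and 5.00, 4.20 and 0.223 FPKM in HF week 5, against 0.075 to 0.995 FPKM elsewhere (1.74 ± 0.456; limma, adjusted p = 0.00994). In HF week 5 library 3, where the adipocyte sum was 1.80 FPKM, Rbp4 was within the range of the non-HF libraries, and the part of fat in this result was not tested. Aldh1a3, another enzyme of retinoic acid synthesis, was higher by 0.82 ± 0.283 (limma, adjusted p = 0.0401), at 2.01, 0.736 and 0.259 FPKM in HF week 5. Its level in library 3 lay within the range of 0.039 to 0.470 FPKM outside HF, and only libraries 1 and 2, which carried the atrial and adipocyte transcripts, lay above it. Aldh1a1, the isoform with the highest level, was at 10.9 to 29.6 FPKM in the HF libraries and 10.2 to 24.5 FPKM in the others (0.47 ± 0.255; limma, adjusted p = 0.187). Rxrg, a retinoid X receptor, was lower: 12.3, 26.6 and 25.7 FPKM in HF week 5 against 37.2 to 47.9 FPKM in control libraries (-1.07 ± 0.182; limma, adjusted p = 5.19e-04). At Recovery week 19 none of the 13 was called against control.

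Of 12 other uroplakin and keratin genes, 5 passed the filter, and Krt7 and Krt14 were the 2 that were higher at HF week 5, against 11.6% of all genes (Krt7 is also on the mesothelial list). Without the filter 2 of 12 were higher, against 7.07%, and both passed the filter only through the HF libraries (Krt14 was at most 0.065 FPKM elsewhere). Krt7, the partner type of Krt19 in simple epithelia, was at 2.10 and 16.5 FPKM in HF week 3 and 12.3, 5.46 and 0.571 FPKM in HF week 5, against at most 0.339 FPKM elsewhere. Krt14 differed by 1.60 ± 0.421 (limma, adjusted p = 0.01) and was listed at 0 in HF week 5 library 3. Krt4, Krt5 and Krt15, keratins of stratified epithelium, were listed at 0 in all 5 HF libraries.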

How the data were processed

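RNA sequencing (poly(A)-selected, paired-end) of mouse hearts was analysed from 1 table of FPKM. Per the study's methods and the submitters' processing notes, the authors aligned reads with TopHat2 to mm9 and derived the deposited FPKM values with Cuffdiff; raw counts were not used here. FPKM depends on the genes that take most fragments, and the largest genes differed between groups (Myh6 was listed at 0 at weeks 5 and 19), so other scalings were tried. Of 29 sample columns 24 were used. The 5 columns of Control week 5 could not be matched to its 4 labelled samples, and the planned comparison of HF week 5 with that group was not run. Recovery week 9 had 2 columns for 3 labelled samples.

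Values were tested as log2(FPKM + 0.5) for genes averaging 0.5 FPKM or more across all 24 columns, with limma 3.58.1 in R 4.3.3 (8 group means, 16 residual degrees of freedom, moderated with a trend, Benjamini-Hochberg over 12759 genes, threshold 0.05). The code was tested on simulated data. Lrrn4, under the filter, was tested by exact two-sided permutation of libraries and in a fit without a filter. The labels list the libraries as separate samples without saying which animal each came from, so p-values measure the spread between these samples. Figures were drawn with matplotlib 3.10.9 under Python 3.11.15. Genes named were the 9 genes, up to 4 examples of each list chosen by level or call (further ones were named after their values were seen), the 10 genes with the most similar profile and each gene's closest partner. The genes and lists were chosen with earlier results of these data known. Alternatives were the pseudocount, the filter, 3 scalings, only the groups compared, an unadjusted threshold, leaving out each library and, chosen after seeing the data, leaving out HF libraries with atrial and adipocyte transcripts. The values of 1 gene of the retinoic acid list are not reported here.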

Additional observations from a re-analysis of the deposited data

Results flagged for a closer look

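Among the 2 groups of 5 libraries, 18 gene and group combinations were examined for a library that stood apart, and chance alone gives about 1 in 20. Msln and Krt18 were both highest in Control week 19 library 5, at 0.328 and 0.371 FPKM against next values of 0.122 and 0.233 FPKM. Upk3b was highest in Recovery week 19 library 5, at 0.371 FPKM against 0.071 FPKM. All 3 values were below the lowest HF library of the same gene.

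The difference from control was called different between the HF weeks for 6 genes by the test of week 5 against week 3 in limma: -2.25 for Msln, -1.86 for Upk1b, -2.32 for Krt8, -1.91 for Krt18, -2.80 for Krt19 and -1.40 for Aldh1a2. Both weeks used the same Control week 19 libraries, and the 2 HF week 3 libraries both carried atrial and adipocyte transcripts. None of the 6 was called with only these groups in the fit, and the count was 3 without HF week 5 library 2 or HF week 5 library 3. The share of all genes called in these fits was not determined.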

How the results depend on the processing

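At HF week 5 against Control week 19, 6 or 7 genes were called under each scaling, pseudocount, filter and threshold, with only the groups compared, without the HF week 3 libraries and without each single library. No paired analysis was run. The paper describes mice sacrificed at each time point, so that a heart belongs to 1 group. The columns name no cohort that ties libraries of different groups. Without HF week 3 and HF week 5 library 1 the filter kept 4 of the genes, of which 2 were called at HF week 5 against control, 2 in recovery weeks 7 to 13 against HF week 5 and 3 at Recovery week 19 against HF week 5, with 8.86%, 8.25% and 10.3% of all genes. Without HF week 5 libraries 1 and 2 a single HF week 5 library remained, so no counts are given for that setting. At HF week 5 against HF week 3 the count was 0 with only those groups in the fit, and 3 without HF week 5 library 2 or HF week 5 library 3. The share of all genes called in these fits was not determined, and why the counts changed was not tested. Values that changed sign were those of uncalled differences. Aldh1a2 at HF week 5 against Control week 19 ran from -0.13 to 0.36 without single libraries, and was -0.12, -0.13 and -0.12 in the 3 settings that left out several HF libraries. Aldh1a2 at Recovery week 19 against HF week 5 ran from -0.47 to 0.02, and was 0.011, 0.024 and 0.011. Wt1 without single libraries ran from -0.036 to 1.35 at HF week 3 against control and from -0.72 to 0.66 at HF week 5 against HF week 3. At Recovery week 19 against Control week 19, Upk1b was 0.0014 with a pseudocount of 0.1 and 0.045 after quantile normalization, and ran from -0.0459 to 0.0498 without single libraries. Krt8 ran from -0.12 to 0.0495 and Upk3b from -0.075 to 0.13. The Wt1 decrease at Recovery week 19 was also lost when values were scaled to the sum outside the 10 highest genes (limma, adjusted p = 0.0732). Of 682 planned and added re-estimates of single-gene differences, 627 kept their direction and side of the threshold, 29 lost the call, 6 gained it and 20 changed sign. Absolute depth is unknown, so levels near 0 have no counting interval.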
